A study of Mus musculus with 59 samples.

Results

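The collagen genes were followed through early differentiation of mouse embryonic stem cells (ESCs) and through loss of subunits of Polycomb repressive complex 1 (PRC1). They were chosen by symbol alone (Col, a number, a, a number), which gave 44 of the 24391 genes listed in every library and left out Col4a3bp, whose symbol has a further suffix. The series holds 59 RNA-seq libraries of 6 ESC lines, all of which carry ERT2-Cre, a recombinase switched on by 4-hydroxytamoxifen (4-OHT). ESCs had been kept on mouse embryonic fibroblast (MEF) feeders with LIF and 3 kinase inhibitors (SU5402, PD184352 and CHIR99021), and embryoid bodies (EBs) had been formed in suspension for 2 days without them. In every line, controls received no 4-OHT and mutants did. The Pcgf1 line was Pcgf1 f/f in 4 control ESC and 5 control EB libraries and Pcgf1 delta/delta in 5 mutant ESC and 5 mutant EB libraries. The Ring1aPM_Ring1bCPM line carried Ring1a pm/pm point-mutant alleles throughout, with Ring1b still unconverted in controls and Ring1b pm/pm in mutants. The 4 other lines were Ring1a-/-;Ring1b f/f (Ring1b delta/delta in mutants), Pcgf2 f/f;Pcgf4 f/f, Pcgf3 f/f;Pcgf5 f/f and Pcgf6 f/f, with their alleles deleted in mutants. These 5 lines had 2 libraries in each of 4 groups. No line without a conditional allele was treated with 4-OHT, so 4-OHT and the allele cannot be told apart.

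Collagens are secreted or membrane proteins whose chains wind into a triple helix. Fibrillar collagens, such as type I, are the main product of fibroblasts and bundle into the fibres of connective tissue. Type IV collagens form the sheet-like network of basement membranes and are made early in the mouse embryo by primitive endoderm. Type VI collagens form beaded filaments, FACIT collagens decorate fibrils, and multiplexins such as type XVIII sit in basement membranes. PRC1 is a chromatin complex with RING1A or RING1B as its ubiquitin ligase and 1 of 6 PCGF proteins as partner, and it keeps many developmental genes with CpG-rich promoters silent. By class, the 44 genes were 11 fibrillar, 6 type IV, 6 type VI, 9 FACIT, 2 multiplexin, 3 short-chain network, 4 transmembrane and 3 other collagens.

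Levels are TPM, a measure of transcript abundance, which are scaled to gene length and to a sum of 1000000 in each library, so the read depth behind them is unknown. Fold changes are on the log2(TPM + 0.1) scale, which understates the change of low genes, and come from limma fitted to every gene of a line with Benjamini-Hochberg adjustment. A gene counted as changed at an adjusted p under 0.05. Shares of all genes given beside counts of collagen genes are at this same threshold. They are no reference for counts at an unadjusted p under 0.05, whose share over all genes is not given. Nothing in the labels says that libraries of a group came from separate cultures, so the p-values measure the spread between these libraries. All 44 genes were above 0 in at least 1 library of both the Pcgf1 and the Ring1aPM_Ring1bCPM line, so none was filtered out there. The targeted transcript followed the labels of the Pcgf1 line: control ESCs had 10.7 to 13.6 TPM of Pcgf1 and mutant ESCs 0.627 to 2.77 TPM, while control EBs had 7.296 to 16.6 TPM and mutant EBs 0.978 to 2.47 TPM. A point mutation leaves the transcript in place, so Ring1 and Rnf2 levels do not check the labels of the Ring1aPM_Ring1bCPM line. In the 4 other lines 21 of 32 files are named for another condition than their label gives. Groups were taken from the labels, and results of those lines are given last.

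The first comparison asked how collagen genes behave as ESCs of the Pcgf1 line become EBs. Transcripts of collagen types I, III and V were much lower in control EBs, whereas the basement membrane collagen gene Col18a1 and the cartilage-type fibrillar gene Col2a1 rose. Of the 44 genes, 20 were lower in control EBs (45.5%, against 13.4% of the 20594 genes tested) and 7 were higher (15.9%, against 11.5%). The median log2 fold change was -0.71 over the 44 genes and -0.01 over all genes. Comparisons that follow within the line share libraries with this one.

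Col1a1 encodes the main chain of type I collagen (mm9 chr11:94797538-94814356, plus strand). It was at 126, 186, 218 and 141 TPM in the 4 control ESC libraries and at 3.74, 9.26, 6.03, 4.001 and 4.12 TPM in the 5 control EB libraries. The groups were far apart, with no overlap (log2 fold change -4.98 ± 0.261 (SE), adjusted p = 8.4e-10). Its partner chain Col1a2 stood at 48.8, 36.2, 46.8 and 42.8 TPM in control ESCs. In control EBs it was left at 1.79, 3.49, 3.53, 1.85 and 1.21 TPM (log2 fold change -4.25 ± 0.354 (SE), adjusted p = 1.6e-07). Col3a1, which forms fibrils together with type I collagen, went from 8.04, 6.18, 6.12 and 4.59 TPM in ESCs to 1.04, 0.417, 0.306, 0.428 and 0.356 TPM in EBs (log2 fold change -3.46 ± 0.496 (SE), adjusted p = 5.1e-05). Every EB library was thus below every ESC library for these 3 genes, in the libraries from which they were called. How many of all genes separate in this way is not given.

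The type V chains, which start and regulate type I fibrils, fell as well. Col5a1 went from 16.02, 29, 34.7 and 21.5 TPM in control ESCs to 2.85, 6.83, 7.56, 2.69 and 3.297 TPM in control EBs (log2 fold change -2.50 ± 0.372 (SE), adjusted p = 7.2e-05). Col5a2 went from between 4.36 and 9.69 to between 0.324 and 0.686 TPM (log2 fold change -3.38 ± 0.333 (SE), adjusted p = 1.1e-06), and Col5a3 from between 4.74 and 12.7 to between 1.17 and 2.29 TPM (log2 fold change -2.08 ± 0.332 (SE), adjusted p = 1.4e-04). None of the 3 overlapped between groups, in the libraries from which they were called. The share of all genes that separate in this way is not given. With these, 6 of 11 fibrillar genes fell. The 2 that rose were Col2a1, the main chain of cartilage collagen, at 3.35, 5.71, 7.08 and 6.35 TPM in control ESCs and 10.2, 15.8, 21.2, 12.1 and 11.4 TPM in control EBs (log2 fold change 1.31 ± 0.329 (SE), adjusted p = 0.0062), and Col24a1, which stayed under 0.4 TPM in every library. The remaining fibrillar genes, Col11a1, Col11a2 and Col27a1, did not pass the test.

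The promoters of fibrillar genes that fell together differed in base composition. The letters below are the 250 bases before the start of Col3a1 and Col5a1, shown because they held the fewest and the most CG among the 4 of these 6 genes that have a window, from RefSeq (GRCm38.p6) and placed by exact match on mm9 on the plus strand. Capitals mark each CG.
Col3a1, chr1:45368133-45368382: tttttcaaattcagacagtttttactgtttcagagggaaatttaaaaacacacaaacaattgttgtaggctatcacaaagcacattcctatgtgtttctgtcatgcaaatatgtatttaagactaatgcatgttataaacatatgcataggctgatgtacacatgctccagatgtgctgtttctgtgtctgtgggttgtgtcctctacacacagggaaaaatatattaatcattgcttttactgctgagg
Col5a1, chr2:27741695-27741944: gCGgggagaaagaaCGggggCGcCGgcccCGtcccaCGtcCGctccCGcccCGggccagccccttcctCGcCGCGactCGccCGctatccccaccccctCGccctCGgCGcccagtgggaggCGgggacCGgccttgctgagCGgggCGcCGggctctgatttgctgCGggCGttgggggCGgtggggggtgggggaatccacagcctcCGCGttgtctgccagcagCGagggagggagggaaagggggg
The Col3a1 window held 0 CG and the Col5a1 window 28, while the median of the 32851 promoter windows of this length was 6. Fewer CG than in Col5a1 were found in 92.4% of windows. A window was found for 35 of the 44 collagen genes, and none for Col1a1, Col5a2 or Col12a1. The motif CCAAT, searched on both strands, was in neither window; it was in 13 of the 38 collagen windows and in 33.8% of all windows.

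Of the 9 FACIT genes, 4 fell and 2 rose. Col12a1, whose product lies along type I fibrils, was at 8.79, 7.17, 8.24 and 9.37 TPM in control ESCs and at 0.123, 0.0495, 0.194, 0.0609 and 0.0130 TPM in control EBs (log2 fold change -5.57 ± 0.302 (SE), adjusted p = 1.1e-09). Col20a1 went from 3.79, 10.4, 11.7 and 3.602 to 0.275, 0, 0.135, 0.909 and 0.727 TPM (log2 fold change -4.12 ± 0.662 (SE), adjusted p = 1.5e-04). Col16a1 and Col9a2 also fell, with log2 fold changes of -1.12 and -1.35. Col14a1 and Col9a1 were the FACIT genes that rose, both from levels near 0 to group means under 1 TPM.

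Type IV collagens, the basement membrane class, did not move as a block. Col4a1 and Col4a2 lie head to head on chromosome 8, with start sites 21 bases apart in the mm9 annotation and transcripts that overlap there on opposite strands. Col4a1 was at 13.3, 18.4, 18.4 and 17.6 TPM in control ESCs and 8.37, 15.1, 18.7, 11.8 and 10.2 TPM in control EBs, overlapping groups whose difference did not pass the test (log2 fold change -0.44 ± 0.263 (SE), adjusted p = 0.26). It passed with replicate numbers as a block (adjusted p = 0.028 by limma). Col4a2 fell, from 11.3, 15.1, 16.6 and 12.8 to 3.27, 5.77, 5.999, 4.89 and 4.48 TPM (log2 fold change -1.51 ± 0.257 (SE), adjusted p = 2.7e-04). Their ratio differed between the stages, with Col4a1 at 1.11 to 1.38 times Col4a2 in control ESC libraries and at 2.28 to 3.11 times in control EB libraries. Col4a5, the X-linked chain of specialised basement membranes, fell from between 1.14 and 2.41 to between 0.0873 and 0.977 TPM (log2 fold change -1.61 ± 0.478 (SE), adjusted p = 0.018), a call lost without control ESC replicate 4 (-1.40). Its neighbour Col4a6 was at 0 to 0.235 and 0.0853 to 0.260 TPM, and Col4a3 and Col4a4 were at most 0.0727 TPM in either group.

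Type VI chains split. Col6a1 (-1.75 ± 0.433, adjusted p = 0.0058 by limma) and Col6a3 (-1.88 ± 0.318, adjusted p = 2.5e-04 by limma) fell on the log2 scale. Col6a2, their usual partner, was at 2.998, 2.39, 2.28 and 2.74 TPM as ESCs, then 3.79, 3.58, 3.801, 0.702 and 0.898 TPM as EBs, and did not pass (log2 fold change -0.33 ± 0.471 (SE), adjusted p = 0.67). Its EB values were above 3.5 TPM in replicates 1 to 3 and under 0.9 TPM in replicates 4 and 5. Col6a5 rose from at most 0.096 TPM to between 0.465 and 2.02 TPM (log2 fold change 3.43 ± 0.439 (SE), adjusted p = 1.6e-05).

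Among short-chain network collagens, Col8a1 went from 2.89, 1.41, 1.44 and 4.37 TPM in control ESCs to being listed at 0 in 4 of 5 control EB libraries (log2 fold change -4.49 ± 0.363 (SE), adjusted p = 1.1e-07). Col8a2, its usual partner chain, moved the other way, from between 0.103 and 0.262 to between 1.26 and 2.54 TPM (log2 fold change 2.86 ± 0.387 (SE), adjusted p = 2.8e-05). Col10a1, the hypertrophic cartilage collagen, fell by 2.60 on the log2 scale. The transmembrane genes Col13a1, Col17a1 and Col23a1 fell, Col13a1 from between 1.98 and 4.18 to between 0.182 and 2.18 TPM (log2 fold change -2.03 ± 0.704 (SE), adjusted p = 0.042). The Col13a1 call was lost without any of control EB replicates 1 to 3 or control ESC replicates 2 to 4 (log2 fold changes -2.02 to -1.63), and that of Col17a1 without control EB replicate 1 or control ESC replicates 2 or 3 (-1.31 to -1.11), or when only these groups were fitted. Col26a1 fell from between 5.88 and 10.4 to between 0.838 and 2.903 TPM.

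Col18a1, the multiplexin whose fragment is endostatin, was the most abundant collagen transcript in EBs. It was at 91.3, 195, 234 and 125 TPM in control ESCs and 206, 528, 448, 337 and 338 TPM in control EBs (log2 fold change 1.23 ± 0.359 (SE), adjusted p = 0.017). Replicate 1 was the lowest library of both groups, and the groups overlapped. The call was lost without control ESC replicate 1 (log2 fold change 0.99). Summed over the 44 genes, collagen transcripts came to between 394.8 and 684.2 TPM in control ESCs and between 269 and 623.3 TPM in control EBs. Within that sum Col1a1 went from 29.1% to 31.9% in ESC libraries to 0.969% to 1.48% in EB libraries, and Col18a1 from 23.1% to 34.2% to 76.4% to 84.6%. The sum over the 11 fibrillar genes ran from 215.8 to 335.9 TPM across control ESC libraries and from 23.6 to 48.2 TPM across control EB libraries.

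**Figure D1:**
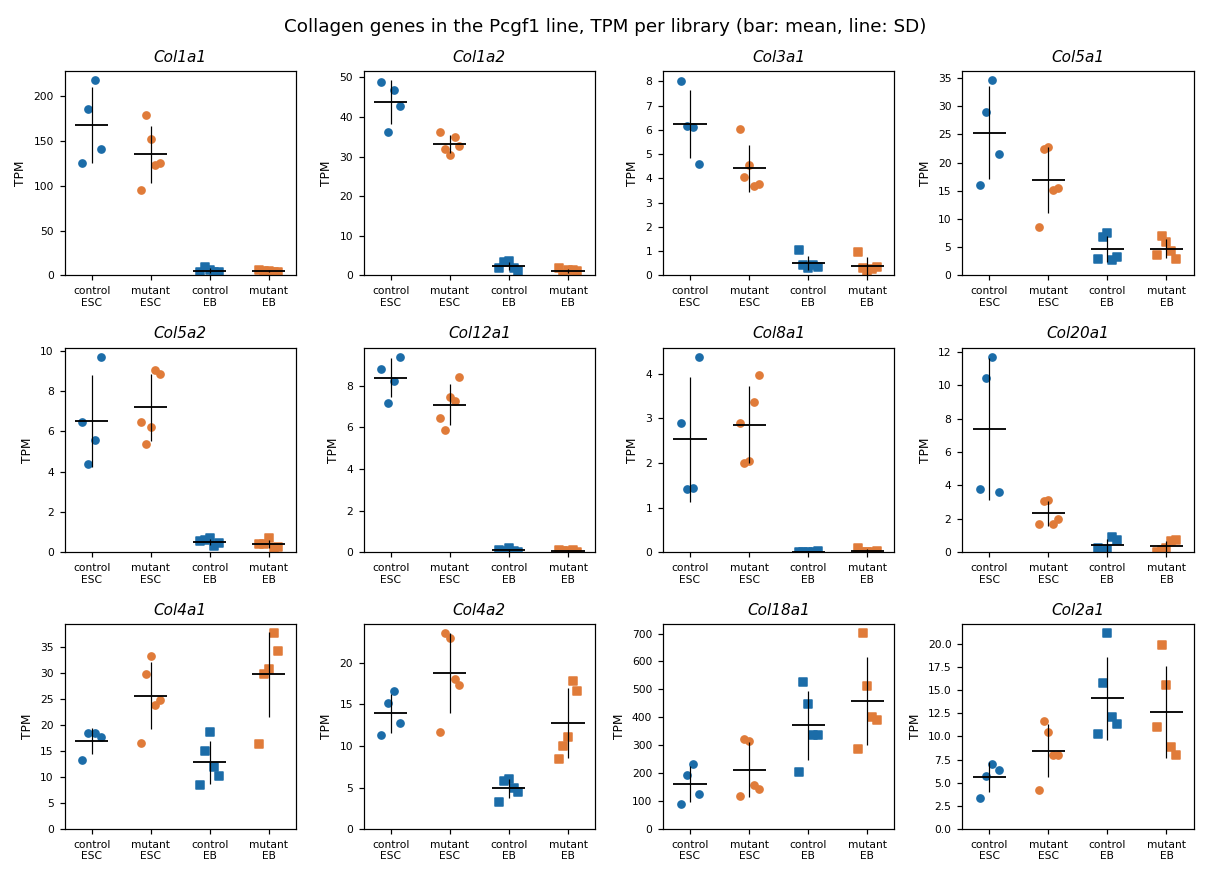
TPM (vertical axis, linear, from 0) of 12 collagen genes in each library of the Pcgf1 line, by group (horizontal axis); points are libraries, bars are means and vertical lines are SDs. Col1a1 stood between 126 and 218 TPM in control ESCs and between 3.74 and 9.26 TPM in control EBs. Col4a1 and Col4a2 were higher by mean in mutant than in control EBs, and the groups overlapped for Col4a1.

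Whether these transcripts came from ESCs or from feeders cannot be read from a bulk library, in which fewer cells of a type and less RNA per cell cannot be told apart. Whether feeders were removed before RNA extraction is not given in the sources used here. Of 15 fibroblast marker genes, 5 fell in control EBs (Fbln2, Pdgfrb, Postn, Prrx1 and Tagln) and 3 rose (Dcn, Mmp2 and Thy1). The list summed to between 102.6 and 151.6 TPM in control ESC libraries and to between 60.6 and 129.8 TPM in control EB libraries. Fbln2, an extracellular matrix glycoprotein, fell most among those above 10 TPM, from 31.8 ± 4.85 TPM (SD, n = 4) to 4.596 ± 2.53 TPM (SD, n = 5). Postn, a matrix protein of fibroblasts, fell from between 2.68 and 3.66 to between 0 and 0.217 TPM. The defining fibroblast markers Dcn and Lum, which encode fibril-binding proteoglycans, were close to 0 in control ESCs, at 0 to 0.536 and 0 to 0.215 TPM, and Fap was at 0 to 0.0600 TPM. Dcn was instead at 5.25, 5.01, 8.16, 1.37 and 1.75 TPM in control EBs. The part of feeder RNA in the fall of fibrillar collagens was not tested.

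Stage markers followed the labels of this line. All 6 naive pluripotency genes fell and all 6 formative epiblast genes rose in control EBs. Klf4, a naive pluripotency factor, went from between 655 and 1270 to between 3.54 and 12.3 TPM, and Fgf5, a marker of formative epiblast, from between 0 and 0.292 to between 25.4 and 68.5 TPM. Of 7 primitive endoderm genes, Dab2 rose and Pdgfra and Sox17 fell. The 4 endothelial genes tested did not pass.

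Genes that modify, cross-link or bind collagens were described from lists. In control EBs 13 of 26 collagen biosynthesis genes were lower and 1 (P3h2) was higher, with a median log2 fold change of -0.78. The cross-linking enzyme Lox went from 18.4 ± 5.92 TPM (SD, n = 4) to 0.662 ± 0.556 TPM (SD, n = 5), the procollagen C-proteinase enhancer Pcolce fell by 2.48 on the log2 scale, and P4ha1, a prolyl 4-hydroxylase subunit, by 2.04. Of 17 partners of type IV collagen in the basement membrane, 7 fell and none rose (median log2 fold change -1.22). At an unadjusted p under 0.05 by limma there were 13, a count without an all-gene share. The nidogen gene Nid1 went from 322 ± 133 to 22.4 ± 8.36 TPM (SD, n = 4 and 5), and the laminin gene Lama1 fell by 3.60 on the log2 scale. Among 9 collagen receptors tested, Ddr2 and Itga11 fell, and the endocytic receptor Mrc2 rose from 2.44 ± 0.581 to 16.3 ± 7.59 TPM.

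**Figure D2:**
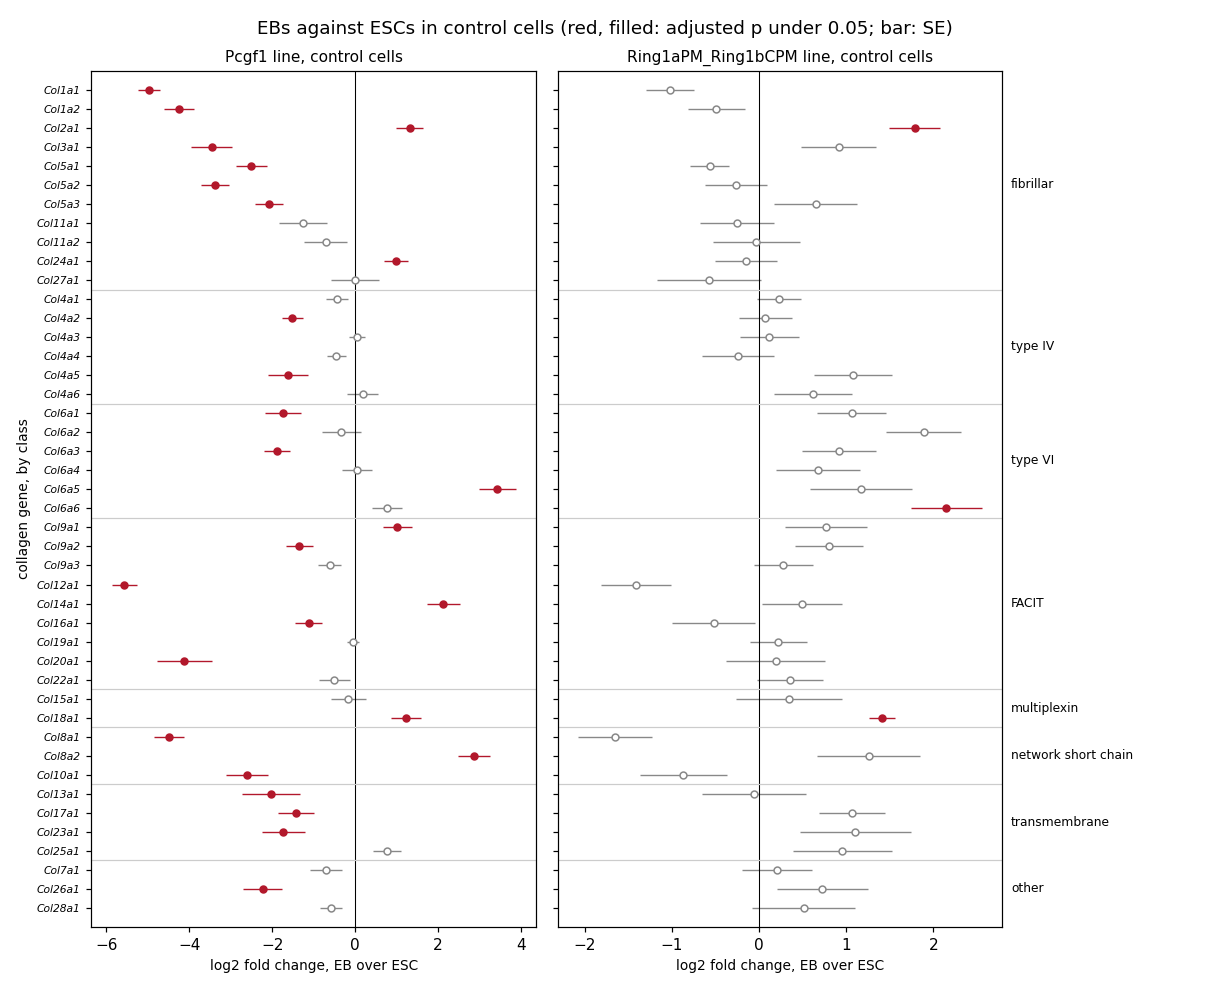
Log2 fold change of EBs over ESCs on the log2(TPM + 0.1) scale (horizontal axis) for each of the 44 collagen genes by class (vertical axis), in control cells of the Pcgf1 line (left) and the Ring1aPM_Ring1bCPM line (right); bars are SEs and filled red points passed an adjusted p of 0.05. In the Pcgf1 line 20 genes were lower and 7 higher, and in the Ring1aPM_Ring1bCPM line 3 were higher and none lower.

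By the leading digits of the library identifiers in their headers, libraries of the Pcgf1 line fell into 3 series. These held replicate 1, replicates 2 and 3, and replicates 4 and 5, and what the identifiers stand for is not given. All 27 collagen genes called in this comparison had the direction of the pooled fit within each of the 3 series. They were called from a fit to these same libraries, so this is no independent support. With replicate numbers as a block, 8 genes were higher and 23 lower, against 20.7% and 23.3% of all genes.

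The same transition was then examined in Pcgf1-mutant cells. In mutant EBs against mutant ESCs 17 genes were lower (38.6%, against 10.2% of all genes) and 4 were higher (9.09%, against 8.13%). Col1a1 went from 95.4, 179, 152, 123 and 126 TPM in mutant ESCs to 6.48, 4.83, 4.87, 4.302 and 3.49 TPM in mutant EBs (log2 fold change -4.78 ± 0.246 (SE), adjusted p = 6.0e-10). Col1a2 went from between 30.3 and 36.1 to between 0.346 and 1.76 TPM, Col3a1 from between 3.69 and 6.03 to between 0 and 0.983 TPM, and Col12a1 from between 5.88 and 8.44 to between 0.0314 and 0.0875 TPM. Log2 fold changes of these 3 were -4.86, -3.56 and -5.53, with adjusted p-values of at most 2.6e-05 by limma. Col18a1 rose from 119, 323, 314, 158 and 144 to 288, 702, 510.5, 402 and 389 TPM (log2 fold change 1.17 ± 0.338 (SE), adjusted p = 0.02). That call was lost without mutant ESC replicate 1, 4 or 5 or mutant EB replicate 2 (log2 fold changes 0.998 to 1.10). Of the 17 lower calls, Col4a6 (between 0.0732 and 0.278 TPM in mutant ESCs and between 0 and 0.143 TPM in mutant EBs) and Col17a1 were lost when 1 of 8 and 1 of 5 of the 10 libraries, respectively, was left out, and Col4a6 also with a pseudocount of 1 or median-of-ratios scaling. Col10a1 was lost without mutant EB replicate 2 (-1.52). Col8a2, Col6a5 and Col14a1 were the other genes that rose. Within each of the 3 library series, all 21 called genes kept the pooled direction, again in the libraries from which they were called. Of the gene lists, 6 of 15 fibroblast markers were lower and none higher, 13 of 26 biosynthesis genes were lower and 1 higher, 9 of 17 basement membrane partners were lower and none higher, and 3 of 7 primitive endoderm markers (Dab2, Gata6 and Pdgfra) were higher and none lower.

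Several genes that changed in control cells did not pass in mutant cells. Col4a2 was at 11.7, 23.6, 23.03, 18.1 and 17.4 TPM in mutant ESCs and 8.405, 9.97, 11.1, 17.8 and 16.6 TPM in mutant EBs (log2 fold change -0.57 ± 0.242 (SE), adjusted p = 0.12), and it passed with the replicate block (adjusted p = 0.019 by limma). Col2a1 was at 4.26 to 11.7 and 8.0 to 19.8 TPM (log2 fold change 0.56 ± 0.310 (SE), adjusted p = 0.25), with an adjusted p of 0.028 under the block. Col13a1 overlapped widely, from between 1.69 and 4.78 TPM in mutant ESCs to between 0.301 and 6.63 TPM in mutant EBs (log2 fold change -0.58 ± 0.663 (SE), adjusted p = 0.63). Whether the mutant effect differed between EBs and ESCs was tested as an interaction. It called 0 of 44 collagen genes in limma, against 0.00486% of all genes. At an unadjusted p under 0.05 by limma it had 6, for which no all-gene share is given. With the replicate block it called 2 of 44, Col5a3 and Col9a2, against 1.62% of all genes. Col9a2 was at 12.8, 21.3, 20.1 and 29.9 TPM in control ESCs, 7.79, 16.8, 10.98, 17.6 and 18.4 TPM in mutant ESCs, 7.14, 6.76, 5.16, 11.8 and 10.1 TPM in control EBs and 11.9, 10.5, 10.4, 21.4 and 20.7 TPM in mutant EBs. Col5a3, which fell in control cells, did not pass in mutant EBs against mutant ESCs (log2 fold change -0.302). Its log2 fold changes in mutant against control cells were -1.244 in ESCs and 0.535 in EBs, and neither passed in the main fit. On the log2 scale both genes were therefore lower by mean in mutant than in control ESCs and higher by mean in EBs. With the block, 5 collagen genes were higher and 19 lower in mutant EBs, against 16.8% and 20.0% of all genes.

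The next question was what loss of PCGF1 does to collagen genes at each stage. In ESCs no collagen gene passed the test in limma, against 0.32% of all genes higher and 0.32% lower. At an unadjusted p under 0.05 by limma there were 6, a count without an all-gene share to set it against. Col1a1 was at 126 to 218 TPM in control and 95.4 to 179 TPM in mutant ESCs (log2 fold change -0.31 ± 0.261 (SE), adjusted p = 0.86). Col1a2 did not overlap, at 36.2 to 48.8 against 30.3 to 36.1 TPM, but its difference missed the threshold (log2 fold change -0.39 ± 0.354 (SE), adjusted p = 0.88). With the replicate block, 3 genes were higher (Col4a1, Col8a2 and Col18a1; 2.53% of all genes were) and 3 lower (Col5a3, Col9a2 and Col26a1; 2.78% of all genes were).

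In EBs both main basement membrane genes were higher in Pcgf1 mutants. Col4a1 was at 8.37, 15.1, 18.7, 11.8 and 10.2 TPM in control EBs and at 16.3, 29.7, 30.7, 37.6 and 34.2 TPM in mutant EBs. Replicate 1 was the lowest library of both groups, and the other mutant values lay above every control value (log2 fold change 1.21 ± 0.248 (SE), adjusted p = 0.014). Without mutant EB replicate 4 the log2 fold change was 1.11 and did not pass. Col4a2 was at 3.27, 5.77, 5.999, 4.89 and 4.48 TPM in control EBs and 8.405, 9.97, 11.1, 17.8 and 16.6 TPM in mutant EBs, with no overlap (log2 fold change 1.34 ± 0.242 (SE), adjusted p = 0.0065). These were the 2 genes called higher (4.55%, against 1.08% of all genes). The type IV chains Col4a5 and Col4a6 did not pass and had log2 fold changes of the other sign: Col4a5 was at 0.0873 to 0.977 TPM in control and 0.0790 to 0.293 TPM in mutant EBs (log2 fold change -0.84 ± 0.450 (SE), adjusted p = 0.52), and Col4a6 at 0.0853 to 0.260 and 0 to 0.143 TPM (log2 fold change -0.99 ± 0.353 (SE), adjusted p = 0.20). The 1 gene called lower (2.27%, against 0.874% of all genes) was Col24a1, a fibrillar gene named here after its values were seen, at 0.0667 to 0.397 TPM in control and 0 to 0.0275 TPM in mutant EBs. All 3 kept their direction in each library series, again in the libraries from which they were called. When only the libraries compared entered the fit, none of the 3 passed. With the replicate block, Col9a2 was also higher and Col22a1 also lower, which gave 3 higher (4.83% of all genes were) and 2 lower (5.58% of all genes were).

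None of the 6 fibrillar genes that fell in control EBs was called higher in mutant than in control EBs. Col1a1 was at 3.74, 9.26, 6.03, 4.001 and 4.12 TPM in control and 6.48, 4.83, 4.87, 4.302 and 3.49 TPM in mutant EBs (log2 fold change -0.12 ± 0.246 (SE), adjusted p = 0.98), and Col5a1 at 2.69 to 7.56 and 2.85 to 6.99 TPM (log2 fold change 0.09 ± 0.350 (SE), adjusted p = 1.0). Col13a1 was at 0.182, 0.733, 0.538, 2.18 and 1.16 TPM in control and 1.62, 1.83, 0.301, 6.57 and 6.63 TPM in mutant EBs (log2 fold change 1.42 ± 0.663 (SE), adjusted p = 0.40). Beside the type IV genes, 3 of 7 primitive endoderm markers were higher in mutant EBs: Gata4, Gata6 and Pdgfra. Gata6, a transcription factor of primitive endoderm, was at 0.361, 0.363, 0.355, 1.12 and 1.19 TPM in control and 1.34, 2.79, 5.37, 6.57 and 8.19 TPM in mutant EBs, and Sox17, another of its defining factors, at 0 to 0.409 and 0.376 to 0.958 TPM. The list summed to 13.06, 15.98, 19.17, 7.04 and 9.487 TPM in control EBs and to 9.085, 18.16, 23.54, 23.63 and 24.76 TPM in mutant EBs. It was thus lower in the mutant at replicate 1 and higher at replicates 2 to 5. None of its genes was at 0 in every library. Of the biosynthesis genes, Pcolce2 and the collagen chaperone Serpinh1 were higher and Loxl2 and P4ha2 lower, Serpinh1 by 0.59 on the log2 scale. The part of primitive endoderm cells in the type IV difference was not tested. Of 15 fibroblast markers, Mmp2 and Thy1 were lower and none was higher, and the list summed to between 60.6 and 129.8 TPM in control EBs and between 25.2 and 58.2 TPM in mutant EBs. Stage markers differed as well. The 6 naive genes summed to 334.3, 272.7, 229.3, 455.7 and 428.1 TPM in control EBs and to 427.8, 439.2, 295.7, 888.3 and 844.5 TPM in mutant EBs, higher in the mutant at each of the 5 replicate numbers, with 1 gene (Tfcp2l1) called higher. The 6 formative genes summed to 1732, 3145, 2974, 1242 and 1270 TPM in control EBs and to 959.7, 2054, 1960, 532.9 and 538.3 TPM in mutant EBs, lower in the mutant at each number, with 1 gene (Lefty2) called higher and none lower. The part of stage in the type IV difference was not tested.

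The Ring1aPM_Ring1bCPM line had far less fibrillar collagen RNA to begin with. Its fibrillar genes summed to 21.4 and 23.7 TPM in control ESCs and 20.7 and 23.9 TPM in control EBs. Col1a1 was at 6.98 and 5.56 TPM in control ESCs and 3.01 and 3.01 TPM in control EBs (log2 fold change -1.03 ± 0.274 (SE), adjusted p = 0.086). Col3a1 was at 0.238 and 0.169 TPM against 0.437 and 0.501 TPM, and Col12a1 at 0.636 and 0.775 TPM against 0.194 and 0.206 TPM. No collagen gene was called lower in control EBs by limma, against 2.0% of all genes called lower. At an unadjusted p under 0.05 by limma, in either direction, 11 of 44 stood out, and no all-gene share is given for that. The lines were not compared by a test. In these ESCs the fibroblast markers Dcn, Lum and Postn were at most 0.0795, 0 and 0.903 TPM. The whole fibroblast list summed to 60.2 and 64.05 TPM there, against 102.6 to 151.6 TPM in control ESCs of the Pcgf1 line. Dcn and Lum were close to 0 in that line's control ESCs as well, so these 2 do not set the lines apart.

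The genes that rose in these control EBs were Col18a1, Col2a1 and Col6a6 (6.82% of the 44, against 2.73% of all genes). Col18a1 went from 73.7 and 64.5 TPM in control ESCs to 196 and 172 TPM in control EBs (log2 fold change 1.41 ± 0.152 (SE), adjusted p = 0.0041). Col2a1 went from 2.42 and 1.98 to 7.43 and 8.19 TPM (log2 fold change 1.79 ± 0.289 (SE), adjusted p = 0.018). Col6a6, named after its values were seen, stayed under 0.6 TPM. Leaving out any 1 library of these groups left 0 or 1 of the 3. In mutant EBs against mutant ESCs no collagen gene passed in limma, against 0.0493% of all genes higher and 0.0838% lower. At an unadjusted p under 0.05 by limma there were 12, a count without an all-gene share to set it against. Col18a1 was then at 60.4 and 53.4 TPM in the ESCs, with 76.2 and 92.8 TPM in the EBs (log2 fold change 0.57 ± 0.152 (SE), adjusted p = 0.29), and Col2a1 at 7.104 and 9.72 and 10.5 and 15.1 TPM (log2 fold change 0.60 ± 0.289 (SE), adjusted p = 0.54). The interaction called none of the 44, against 0.00986% of all genes. At an unadjusted p under 0.05 by limma it had 3, again without an all-gene share.

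Collagen genes of several classes were higher in the RING1 point mutants. In mutant against control ESCs 6 of 44 were higher (13.6%, against 2.34% of all genes) and none was lower (0.197% of all genes). At an unadjusted p under 0.05 by limma, in either direction, there were 18, for which no all-gene share is given. In mutant against control EBs 11 were higher (25%, against 3.76%) and 1 was lower (2.27%, against 0.764%). The median log2 fold change was 0.88 over the 44 genes and 0.12 over all genes in ESCs, and 0.79 and 0.10 in EBs. Scaling by the median of ratios set the all-gene medians to 0.

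Type IV genes were again among them. Col4a1 was at 12.5 and 11.9 TPM in control and 36.4 and 34.4 TPM in mutant ESCs (log2 fold change 1.53 ± 0.252 (SE), adjusted p = 0.029). In EBs it was at 12.2 and 16.8 TPM in controls and 40.9 and 64.7 TPM in mutants (log2 fold change 1.84 ± 0.252 (SE), adjusted p = 0.014). Mutant libraries lay above control libraries at both stages, although with 2 libraries a group such separation alone says little. Col4a2 was at 6.32 and 6.33 TPM against 15.8 and 16.1 TPM in control and mutant ESCs (log2 fold change 1.32 ± 0.304 (SE), adjusted p = 0.073), and at 5.53 and 7.96 TPM against 18.9 and 33.3 TPM in EBs (log2 fold change 1.90 ± 0.304 (SE), adjusted p = 0.021). In this line Col4a1 stayed at 1.88 to 2.31 times Col4a2 in every library of the line. Col4a5 and Col4a6 did not pass at either stage, at no more than 1.01 and 0.274 TPM.

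Among fibrillar genes, 3 were higher in mutant ESCs and 5 in mutant EBs. Col5a1 was at 6.92 and 5.92 TPM against 16.6 and 16.2 TPM in control and mutant ESCs (log2 fold change 1.35 ± 0.219 (SE), adjusted p = 0.028), and at 3.87 and 4.74 TPM against 15.5 and 18.3 TPM in EBs (log2 fold change 1.95 ± 0.219 (SE), adjusted p = 0.011). Col11a1, a cartilage-type fibrillar chain, was at 0.751 and 0.775 TPM against 3.18 and 4.496 TPM in ESCs, whereas EBs had 0.564 and 0.690 TPM against 2.38 and 4.303 TPM. Its log2 fold changes were 2.17 ± 0.425 and 2.19 ± 0.425 (SE), and the ESC call was lost with a pseudocount of 1 (1.44). Col2a1 was higher in mutant ESCs (log2 fold change 1.88 ± 0.289 (SE), adjusted p = 0.025) and did not pass in EBs. Col1a1 and Col1a2 passed in EBs, Col1a1 from 3.01 and 3.01 to 11.7 and 9.35 TPM (log2 fold change 1.77 ± 0.274 (SE), adjusted p = 0.019) and Col1a2 from 2.21 and 1.41 to 6.56 and 5.44 TPM (log2 fold change 1.70 ± 0.330 (SE), adjusted p = 0.036). In ESCs neither passed: Col1a1 was at 6.98 and 5.56 TPM against 16.3 and 11.3 TPM. Col27a1 was at 0.318 and 0.926 TPM in control and 3.01 and 6.37 TPM in mutant EBs (log2 fold change 2.78 ± 0.597 (SE), adjusted p = 0.047). Col3a1, Col5a2 and Col5a3 did not pass at either stage, although Col3a1 passed in EBs with a pseudocount of 1 (0.75).

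Type VI, transmembrane and anchoring collagens changed too. Col6a2 was at 0.222 and 0.210 TPM against 2.13 and 3.54 TPM in control and mutant ESCs (log2 fold change 3.17 ± 0.434 (SE), adjusted p = 0.021), and at 0.815 and 1.396 TPM against 5.27 and 6.15 TPM in EBs (log2 fold change 2.31 ± 0.434 (SE), adjusted p = 0.033). Col6a1 passed in EBs, at 0.840 and 0.655 TPM against 3.19 and 2.94 TPM (log2 fold change 1.91 ± 0.395 (SE), adjusted p = 0.042), whereas Col6a3 did not pass at either stage. Col25a1, a transmembrane collagen of neurons, was at 0 and 0.0209 TPM in control ESCs and 0.963 and 1.65 TPM in mutant ESCs (log2 fold change 3.63 ± 0.567 (SE), adjusted p = 0.027), and at 0.0406 and 0.224 TPM against 1.100 and 1.99 TPM in EBs. Col7a1, which forms anchoring fibrils, was at 0.677 and 1.17 TPM against 3.23 and 4.36 TPM in control and mutant EBs (log2 fold change 1.95 ± 0.402 (SE), adjusted p = 0.042). Col13a1, a further transmembrane collagen, was at 2.45 and 7.82 TPM against 22.4 and 24.8 TPM and missed the threshold (log2 fold change 2.40 ± 0.597 (SE), adjusted p = 0.068).

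Promoter windows of genes that were higher in these mutants are shown for Col25a1, which had the largest log2 fold change of the 44 in ESCs, and Col11a1, which passed at both stages with fewer CG. The sequences are the 250 bases before the start, from RefSeq (GRCm38.p6), on the mm9 plus strand by exact match, with each CG in capitals.
Col25a1, chr3:129883513-129883762: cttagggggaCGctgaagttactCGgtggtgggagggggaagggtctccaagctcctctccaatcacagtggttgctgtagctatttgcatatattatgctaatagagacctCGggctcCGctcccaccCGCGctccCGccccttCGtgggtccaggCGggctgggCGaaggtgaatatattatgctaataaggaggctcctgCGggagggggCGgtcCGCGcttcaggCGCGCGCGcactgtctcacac
Col11a1, chr3:113733208-113733457: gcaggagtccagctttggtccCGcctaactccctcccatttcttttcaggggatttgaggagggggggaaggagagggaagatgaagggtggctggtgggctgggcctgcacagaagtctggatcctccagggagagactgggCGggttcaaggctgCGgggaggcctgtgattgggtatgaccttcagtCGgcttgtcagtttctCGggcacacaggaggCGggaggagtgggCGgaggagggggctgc
Col25a1 held 18 CG, more than 78.3% of all windows, and Col11a1 held 7, more than 53.7%. CG counts of the remaining genes called higher in either mutant comparison that had a window were 31 for Col4a1, 26 for Col4a2, 28 for Col5a1, 15 for Col27a1, 11 for Col1a2, 7 for Col7a1, 3 for Col6a1, and 6 and 14 for the 2 starts of Col6a2. They ran from below to far above the all-promoter median of 6.

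Col18a1 was the 1 collagen gene called lower. It was at 196 and 172 TPM in control EBs and 76.2 and 92.8 TPM in mutant EBs (log2 fold change -1.13 ± 0.152 (SE), adjusted p = 0.014), and at 73.7 and 64.5 TPM against 60.4 and 53.4 TPM in control and mutant ESCs (log2 fold change -0.28 ± 0.152 (SE), adjusted p = 0.43). Mutant EBs also had more of the naive genes Klf4, Nanog and Tbx3 than control EBs, and had less Car4, Fgf5, Otx2 and Pou3f1, which mark the formative stage. Klf4 was at 37.2 and 65.1 TPM in control and 104 and 122 TPM in mutant EBs, and Fgf5 at 43.97 and 22.7 TPM against 3.06 and 2.91 TPM.

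**Figure D3:**
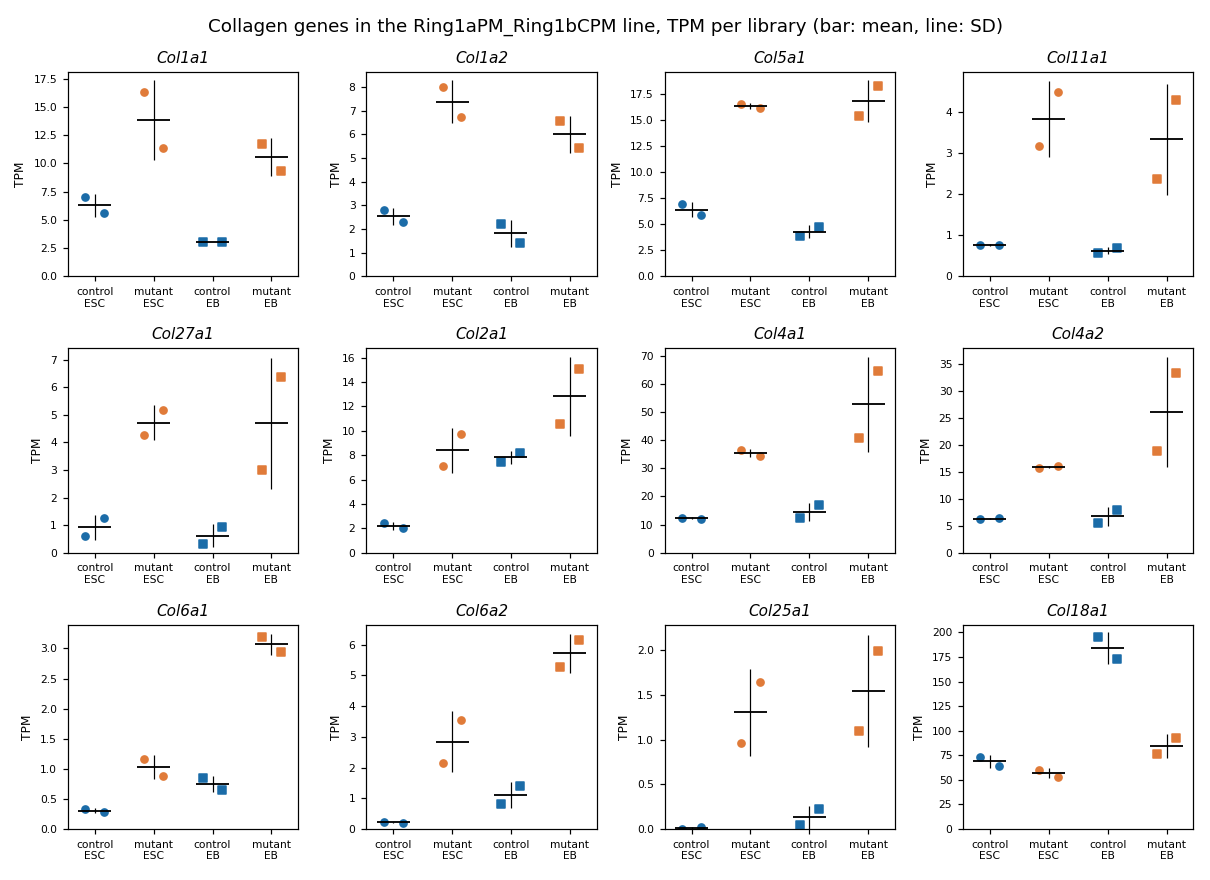
TPM (vertical axis, linear, from 0) of 12 collagen genes in each library of the Ring1aPM_Ring1bCPM line by group (horizontal axis); points are libraries (2 a group), bars are means and vertical lines are SDs. Mutant libraries lay above control libraries at both stages for Col4a1, Col4a2, Col5a1, Col6a2 and Col25a1, and Col18a1 was lower in mutant EBs. With 2 libraries a group, such separation alone says little.

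All collagen calls in both mutant comparisons of this line rest on 2 libraries a group. Leaving out any 1 library of the groups compared, or fitting only those groups, left 0 of the 6 genes in ESCs and 0 of the 12 in EBs past the threshold. Of 7 primitive endoderm markers, Gata4 and Gata6 were called higher in mutant ESCs (2.34% of all genes were). Gata6 and Pdgfra were called higher in mutant EBs (3.76% of all genes were). Gata6 was at 2.13 and 1.52 TPM against 11.04 and 8.72 TPM in control and mutant ESCs and at 3.99 and 3.73 TPM against 12.7 and 11.3 TPM in EBs, and Sox17 at 0.485 and 0.344, 2.05 and 1.32, 0.630 and 0.409, and 3.85 and 1.74 TPM in these groups. The 7-gene list summed to 5.77 and 7.06 TPM in control ESCs, 25.96 and 27.3 TPM in mutant ESCs, 14.6 and 19.7 TPM in control EBs and 35.2 and 38.1 TPM in mutant EBs. Fibroblast markers were higher only for Thy1 and Twist2 in mutant EBs, and their list summed to 60.2 and 64.1, 117.1 and 133.5, 57.7 and 83.2, and 99.2 and 120.7 TPM. Lum was at most 0.0732 TPM and Dcn at most 0.656 TPM in any library of the line. The part of other cell types in these differences was not tested.

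Collagen-processing genes rose in small number. In both mutant comparisons 3 of 26 biosynthesis genes were higher and none lower: Bmp1, the procollagen C-proteinase, Loxl4, a cross-linking oxidase, and P4ha2, a prolyl 4-hydroxylase subunit. P4ha2 was at 11.4 and 19.9 TPM against 71.1 and 53.3 TPM in control and mutant ESCs (log2 fold change 2.02 ± 0.314 (SE), adjusted p = 0.026). Sparc, which binds type IV collagen, was higher at both stages (0.68 in ESCs and 0.75 in EBs, log2), as was Lamb3, and Lama4 was higher in EBs. None of 10 collagen receptors passed in either comparison (1 had an unadjusted p under 0.05 in ESCs and 0 in EBs, limma).

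**Figure D4:**
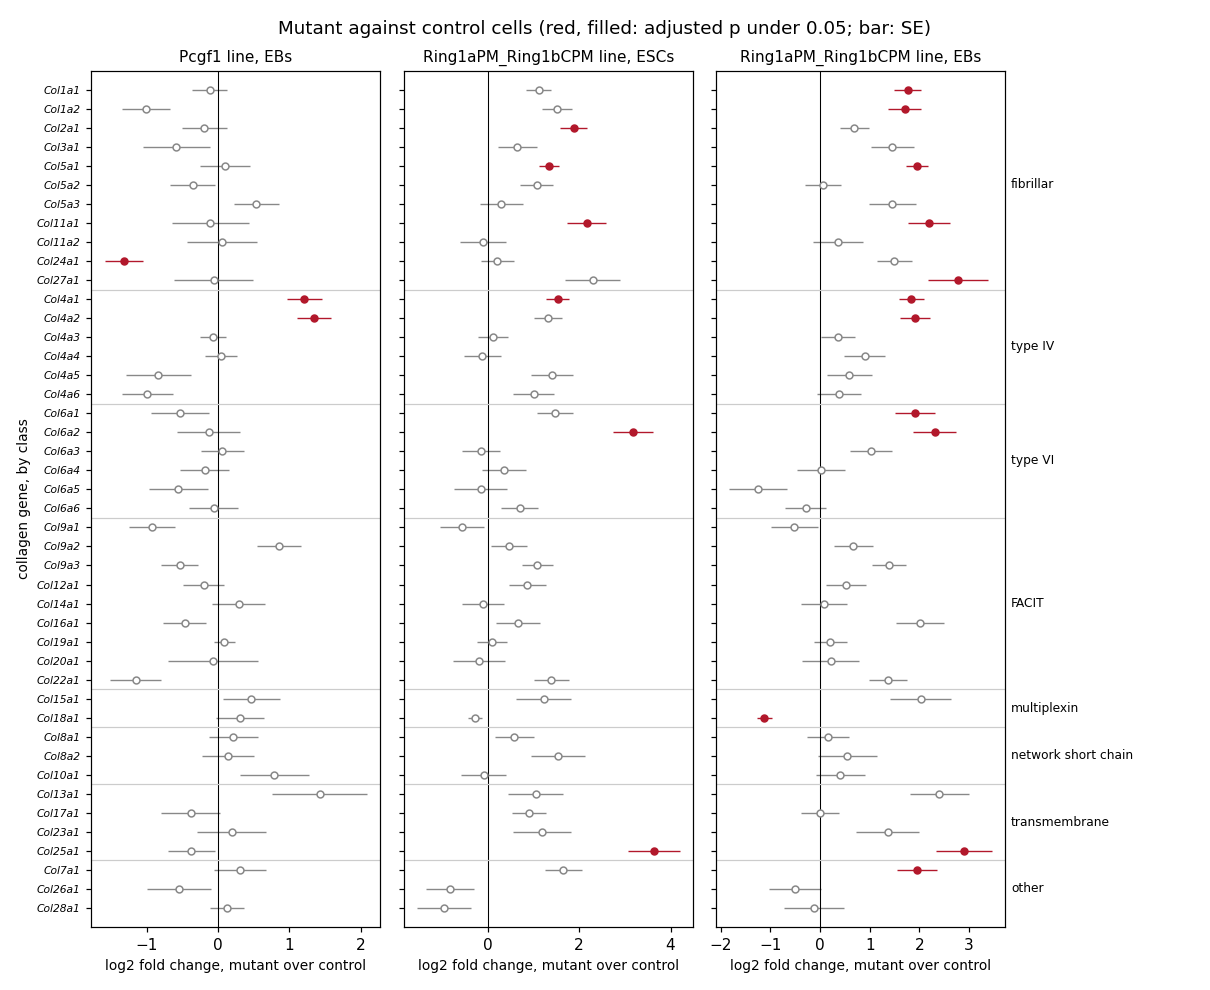
Log2 fold change of mutant over control cells on the log2(TPM + 0.1) scale (horizontal axis) for the 44 collagen genes by class (vertical axis) in Pcgf1-line EBs, Ring1aPM_Ring1bCPM ESCs and Ring1aPM_Ring1bCPM EBs; bars are SEs and filled red points passed an adjusted p of 0.05. Col4a1 and Col4a2 were called higher in EBs of both lines, and Col18a1 was the 1 gene called lower in Ring1aPM_Ring1bCPM EBs. None of these calls remained when only the groups compared were fitted.

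In the 4 other lines the labels could not be taken at face value. File names and labels disagree for 4 of 8 libraries in the Ring1a-/-;Ring1b f/f line, 6 in the Pcgf2 f/f;Pcgf4 f/f line, 5 in the Pcgf3 f/f;Pcgf5 f/f line and 6 in the Pcgf6 f/f line. Without those 21 libraries none of the 4 comparisons made in each line could be tested, since no pair of groups differing in stage alone or in state alone kept enough libraries. Pcgf6 itself was at 91.5 and 67.05 TPM in libraries labelled control ESC, 105 and 78.8 in mutant ESC, 34.7 and 35.7 in control EB and 36.95 and 46.3 in mutant EB. It was therefore lower in both groups labelled EB than in both labelled ESC, and did not follow the mutant label. The values that follow are those of libraries as labelled.

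In the Ring1a-/-;Ring1b f/f line, the 2 replicates of each label had similar values, but stage markers went against the stage label in the groups labelled mutant ESC and control EB. Klf4 was at 754 and 766 TPM where the label was control ESC, 9.899 and 7.38 in those labelled mutant ESC, 666 and 708 in those labelled control EB and 117 and 118 in those labelled mutant EB. Fgf5 was at 0.816 and 0.465, 27.98 and 27.5, 0.540 and 0.791 and 8.71 and 9.91 TPM for these labels in turn. Col1a1 was high in the same 2 groups as Klf4, though in the other order, at 110.5 and 111 TPM in libraries labelled control ESC, 5.77 and 5.501 in mutant ESC, 255 and 272 in control EB and 29.4 and 28.9 in mutant EB. Col12a1, Col5a2 and Col8a1 had the same order of groups as Col1a1. Col4a1 did not: it was at 38.4 and 38.6, 25.2 and 24.7, 67.1 and 72.5 and 148 and 152 TPM, with Col4a2 at 23.2 and 22.2, 12.7 and 12.1, 36.9 and 37.9 and 68.1 and 68.2 TPM. Gata6 had its peak in the same libraries as Col4a1, at 1.74 and 1.197, 2.17 and 1.56, 8.42 and 8.01 and 67.5 and 68.2 TPM.

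As labelled, 23 of 44 collagen genes changed between control EBs and control ESCs (43.2% of all genes), 29 between mutant EBs and mutant ESCs (56.5%), 26 between mutant and control ESCs (48.8%) and 21 between mutant and control EBs (33.3%). All 23 and 27 of the 29 were higher in the libraries labelled EB. Shares of all genes this high leave little to read from the collagen counts.

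In the Pcgf2 f/f;Pcgf4 f/f and Pcgf6 f/f lines each label held libraries with unlike levels of stage markers. No gene at all was called in any comparison by limma (0.0% of all genes in the 4 comparisons of each line). At an unadjusted p under 0.05 by limma, 0 collagen genes stood out in the Pcgf2 f/f;Pcgf4 f/f line. In the Pcgf6 f/f line 6, 12, 0 and 1 did for control EBs, mutant EBs, mutant ESCs and mutant EBs against their references. No all-gene share is given for these counts. In both lines Klf4 was high in replicate 1 and low in replicate 2 of every label. In the Pcgf2 f/f;Pcgf4 f/f line Klf4 was at 120.4 and 9.31, 168 and 8.54, 134 and 11.1 and 152 and 10.3 TPM in replicates 1 and 2 of control ESC, mutant ESC, control EB and mutant EB, and Col1a1 was likewise higher in each replicate 1, at 61.8 and 4.19, 40.7 and 5.62, 31.6 and 6.76 and 36.9 and 9.45 TPM. Col4a1 was at 5.33 to 12.8 TPM throughout.

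In the Pcgf6 f/f line Klf4 was at 142 and 3.25, 200.2 and 4.11, 143 and 16.1, and 156 and 13.7 TPM for these labels in turn. Col1a1 was at 34.2 and 1.19 TPM against 31.9 and 1.18 TPM in libraries labelled control and mutant ESC, and at 57.7 and 36.1 TPM against 60.6 and 92.2 TPM in those labelled control and mutant EB, so that replicate 2 labelled mutant EB was the highest. The second replicates labelled EB had the highest type IV levels of this line, and the one labelled mutant EB the highest Col4a1 value of the 59 libraries. Col4a1 was at 19.9 and 127 TPM in control EB and 18.4 and 277 TPM in mutant EB, with 14.8 and 5.75 TPM in control ESC and 13.9 and 8.39 TPM in mutant ESC. Col6a1 and Col3a1 peaked in the same 2 libraries, Col6a1 at 1.92 and 12.8 TPM against 1.401 and 25.3 TPM and Col3a1 at 2.59 and 6.51 TPM against 2.96 and 15.4 TPM. Gata6 was at 1.41 and 7.23 TPM against 1.32 and 13.6 TPM there.

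In the Pcgf3 f/f;Pcgf5 f/f line no collagen gene of 43 tested was called by limma in any of the 4 comparisons. Shares of all genes called were 0.0601% in control EBs against control ESCs and 0.0% in mutant EBs against mutant ESCs. They were 0.0401% in mutant against control ESCs and 0.0301% in mutant against control EBs. At an unadjusted p under 0.05 by limma, 7, 1, 0 and 1 collagen genes stood out in turn, with no all-gene share given. Col1a1 was at 25.6 and 28.04 TPM in libraries labelled control ESC, 41.8 and 0.869 in mutant ESC, 1.43 and 1.32 in control EB and 1.28 and 24.9 in mutant EB. Klf4 was at 178 and 138, 142 and 12.1, 9.23 and 6.803 and 7.74 and 183 TPM, so that replicate 2 of each mutant label differed from replicate 1 in both genes. Col18a1 was high where these were low, at 131 and 122, 139.8 and 361, 423 and 350 and 357 and 121 TPM. Col4a1 was at 4.06 to 6.24 TPM in all 8 libraries.

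**Figure D5:**
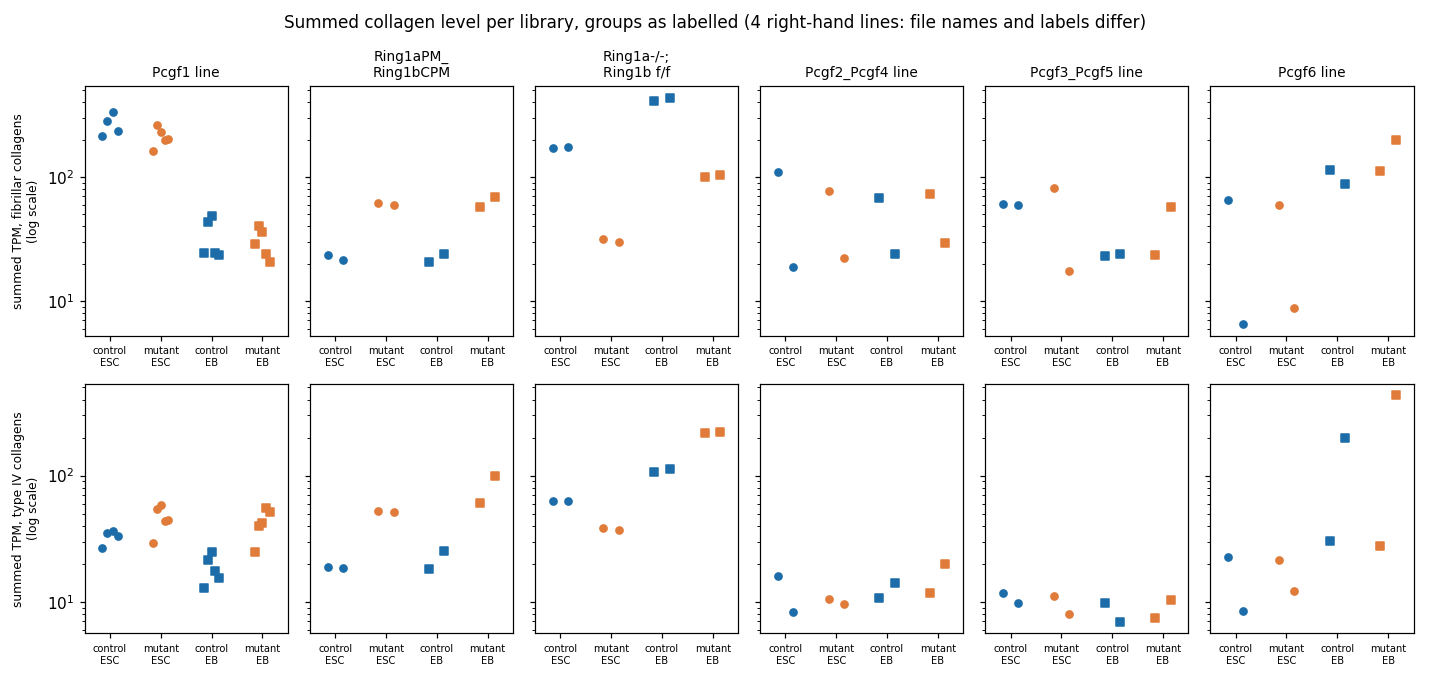
Summed TPM (vertical axes, log scale) of the 11 fibrillar genes (top) and the 6 type IV genes (bottom) in each of the 59 libraries, by line (columns) and group as labelled (horizontal axis); each point is a library. In the Pcgf1 line fibrillar sums were between 215.8 and 335.9 TPM in control ESCs and between 23.6 and 48.2 TPM in control EBs, and in the lines where names and labels differ, replicates of 1 label can lie far apart.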

How the data were processed

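RNA-seq libraries (59, of 6 lines) were made from mRNA that the authors selected from total RNA by its poly(A) tail. The authors aligned reads with STAR 2.5.2b to mm9 (UCSC), counted them on exons and compared groups with DESeq2. The deposited values used here are TPM per gene, and how the counts became TPM is not given in the sources used here. TPM keeps no read depth, so no counting interval could be given. Each library sums to 1000000 TPM, and none of 1711 pairs of libraries was identical.

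Here log2(TPM + 0.1) of genes above 0 in at least 1 library of a line was fitted with limma 3.58.1 (R 4.3.3; trended prior), 1 model per line over its 4 groups, with Benjamini-Hochberg adjustment over all genes and a threshold of 0.05. Tested on simulated data of the Pcgf1 design (20594 genes), the fit recovered 36% of log2 changes of 1 and 75% of log2 changes of 2. In the Ring1aPM_Ring1bCPM design (20278 genes) it recovered 23% and 54%. Of the simulated calls, 6.7% and 3.8% were false in these designs. Simulated libraries were independent, whereas real same-numbered libraries of these lines correlated, so the rates need not hold for the real data. Groups came from the labels. A library of Pcgf1-mutant EBs is replicate 4 by its title and 5 by another label, and the title was used.

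Replicate numbers of the Pcgf1 line were taken to pair its libraries, because deviations from group means correlated in all 18 same-numbered pairs (r 0.317 to 0.653 over 13400 genes). No correlation was computed between libraries of unlike numbers, so a source shared across numbers cannot be told apart from pairing. The main fit left the pairing out, and the block was an alternative to it. A collagen gene was named where it passed the threshold with a group mean of at least 1 TPM, or as 1 of 15 main chains (types I, II, III, V, VI, IV, XIII and XVIII). Genes of other lists were named where they passed with a group mean of at least 10 TPM, at most 4 a list, or as defining markers. The members and lists were chosen with earlier results of these data known. Alternatives were a pseudocount of 1, median-of-ratios scaling, a filter at a mean TPM of 1, the replicate number as a block, the compared groups fitted alone, and leaving out each library. Promoter windows were RefSeq sequences matched to mm9. A gene of the basement membrane partner list is not reported here.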

Additional observations from a re-analysis of the deposited data

Results flagged for a closer look

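In 104 groups of 4 or 5 libraries of the Pcgf1 line, 6 values stood far from the rest of their group by Dixon's criterion, which chance meets in about 1 of 20 groups. Col4a1, the type IV chain, was lowest in replicate 1 of control ESCs, at 13.3 TPM against 17.6 to 18.4 TPM in the other libraries. It was also lowest in replicate 1 of mutant EBs, at 16.3 TPM against 29.7 to 37.6 TPM. Col3a1 was highest in replicate 1 of control EBs, at 1.04 TPM against 0.306 to 0.428 TPM. Col6a1 was lowest in replicate 2 of mutant ESCs, at 1.98 TPM against 3.55 to 3.65 TPM. The other 2 lay near 0: Col4a6 was at 0.143 TPM in replicate 3 of mutant EBs, against at most 0.0277 TPM, and Col8a1 was at 0.0298 TPM in replicate 5 of control EBs, with the other 4 libraries listed at 0.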

How the results depend on the processing

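Read depth is unknown from TPM, so it sets no limit that can be stated here, and 2 libraries a group limit every line but Pcgf1. Of 145 named log2 fold changes, 142 kept their direction and their side of the threshold with a pseudocount of 1, 141 with median-of-ratios scaling, 134 with a replicate block (11 newly passed) and 123 when only the groups compared were fitted (22 no longer passed). With a mean TPM of at least 1, only 24 collagen genes of the Pcgf1 line were tested. Of these, 3 were higher in control EBs, and 2 were higher and 11 lower in mutant EBs. With a replicate block the Pcgf1 line had 6 collagen genes changed in mutant against control ESCs, 5 in EBs and 2 in the interaction, and no other call count moved by over 1.5 times. In the Ring1aPM_Ring1bCPM line, whose same-numbered libraries also correlated (r 0.258 to 0.381), the block gave 1 gene lower in control EBs and 11 changed in mutant ESCs. When only the groups compared were fitted, 0 genes changed in mutant against control EBs of the Pcgf1 line, and in the Ring1aPM_Ring1bCPM line 1 was higher in control EBs and 0 changed in mutant ESCs or in mutant EBs; in the Pcgf3 f/f;Pcgf5 f/f line, 13 genes then changed between EBs and ESCs labelled control. The cause was not tested. Except for the replicate block of the Pcgf1 line, shares of all genes are not given for the counts in this section. Those counts therefore cannot be set against all genes. Same-numbered libraries of the Pcgf3 f/f;Pcgf5 f/f line correlated at -0.79 to -0.071, those of the Ring1a-/-;Ring1b f/f line at -0.033 to -0.001, those of the Pcgf2 f/f;Pcgf4 f/f line at 0.631 to 0.758 and those of the Pcgf6 f/f line at 0.39 to 0.759, and their numbers were not crossed.

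Leaving out 1 library at a time gave 5 to 8 genes higher and 17 to 21 lower in Pcgf1 control EBs, 3 to 5 higher and 14 to 17 lower in mutant EBs, and 2 to 3 changed in mutant against control EBs. In the Ring1aPM_Ring1bCPM line it left 0 to 1 gene higher in control EBs and 0 changed in either mutant comparison. Where a group was left with 1 library, that library was assumed to vary like the other groups. Median-of-ratios scaling reversed 2 values near 0: Col13a1 in Pcgf1 mutant against control ESCs was at 0.017 and Col5a2 in Ring1aPM_Ring1bCPM mutant against control EBs at -0.067 on the log2 scale. Leaving out 1 library turned the sign of 20 log2 fold changes, none of which had passed the test, with the lowest and highest values as follows. In Pcgf1 control EBs against ESCs, these were Col4a6 -0.22 to 0.36 and Col6a2 -0.55 to 0.023. In Pcgf1-mutant EBs against ESCs, these were Col6a2 -0.35 to 0.03 and Col13a1 -0.97 to 0.044. In Pcgf1 mutant against control ESCs, these were Col4a5 -0.39 to 0.05, Col4a6 -0.17 to 0.41, Col5a2 -0.003 to 0.38 and Col13a1 -0.26 to 0.21. In Pcgf1 mutant against control EBs, these were Col1a1 -0.23 to 0.10, Col5a1 -0.063 to 0.30, Col6a2 -0.49 to 0.084 and Col6a3 -0.10 to 0.26. In Ring1aPM_Ring1bCPM control EBs against control ESCs, these were Col4a1 -0.003 to 0.46, Col4a2 -0.19 to 0.33 and Col13a1 -0.87 to 0.76. In Ring1aPM_Ring1bCPM mutant EBs against mutant ESCs, these were Col4a5 -0.11 to 0.63, Col4a6 -0.38 to 0.35 and Col5a1 -0.086 to 0.16. In Ring1aPM_Ring1bCPM mutant against control ESCs, these were Col6a3 -0.48 to 0.19. In Ring1aPM_Ring1bCPM mutant against control EBs, these were Col5a2 -0.15 to 0.26.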
